A study of Mus musculus with 6 samples.

Results

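Expression of 8 keratin genes was followed in mouse submandibular salivary gland organoids (mSGOs) between day 5 and day 7 of culture. They were chosen by name, as the keratins of basal duct cells (*Krt5*, *Krt14*, *Krt15* and *Krt17*) and of simple, luminal duct cells (*Krt7*, *Krt8*, *Krt18* and *Krt19*). These keratins and the gene lists used below were chosen with earlier results of these data known. Their counts beside the shares over all genes are therefore descriptions and no test of enrichment. The keratins are 8 of the 47643 gene IDs counted, of which 43465 could be matched to a gene name. The study itself lists *Krt17* beside *Krt7* among luminal duct markers, while *Krt17* is grouped here with the basal keratins of its chromosomal cluster. mSGOs are multicellular structures that grow in Matrigel from dissociated adult gland cells, and they were used in the study as a model of duct and progenitor cells. Organoids of mice numbered 1 to 3 were collected on both days, which gave 3 libraries per day and 6 in all, and equal numbers were read as the same animal. All of them came from non-irradiated, untreated organoids of female C57BL/6 mice aged 8 to 12 weeks. All were kept in the same medium, which held EGF, FGF2, insulin, dexamethasone, the kinase inhibitor Y27632 and media conditioned by cells that secrete Wnt3a and R-spondin1, so day of culture was the only labelled difference between the groups.

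Keratins are the intermediate filament proteins of epithelial cells. A filament is built from pairs of 1 acidic type I and 1 basic type II keratin, so each type I protein needs a type II partner. Keratin 5 and keratin 14 are the classic pair of basal cells, keratin 15 and keratin 17 are further type I keratins of basal and basal-like cells, and keratin 8 with keratin 18 is the founding pair of simple epithelia, joined in ducts by type II keratin 7 and type I keratin 19. *Krt14* and *Krt5* are also made by the myoepithelial cells that surround the secretory units of the gland.

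The genes lie in the 2 keratin clusters of the mouse genome (GRCm39). On chromosome 11, *Krt15* (ENSMUSG00000054146, 100022584 to 100026775), *Krt19* (ENSMUSG00000020911, 100031636 to 100039491), *Krt14* (ENSMUSG00000045545, 100093988 to 100098490) and *Krt17* (ENSMUSG00000035557, 100147040 to 100151974) span 129391 bases and are all on the minus strand. On chromosome 15, *Krt7* (ENSMUSG00000023039, 101308924 to 101328194, plus strand), *Krt5* (ENSMUSG00000061527, 101615505 to 101621346, minus strand), *Krt8* (ENSMUSG00000049382, 101905133 to 101912917, minus strand) and *Krt18* (ENSMUSG00000023043, 101936615 to 101940462, plus strand) span 631539 bases. *Krt18* is the only type I gene of the chromosome 15 cluster, and 23697 bases separate it from *Krt8*, from which it is read in the opposite direction.

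The promoters of the basal pair *Krt5* and *Krt14* and of the simple pair *Krt8* and *Krt18* are shown as those of the classic partners. Each stretch runs 5′ to 3′ on the gene's strand from 250 bases before to 50 bases after the start that RefSeq gives, on the assembly GRCm38.p6, which is older than the build of the counts. These starts were not compared with the gene bounds given above. A stretch may therefore lie inside a gene and not at its main start. Capitals mark the letters of 5 motifs that were searched on both strands, where the TATA box is TATAAA, the GC box is GGGCGG, the AP-1 motif is TGANTCA, the AP-2 motif is GCCNNNGGC and the TEAD motif is GGAATG. The stretches are chr15:101712856-101713155 (minus strand) for *Krt5*, chr11:100205981-100206280 (minus strand) for *Krt14*, chr15:102004293-102004592 (minus strand) for *Krt8* and chr15:102027966-102028265 (plus strand) for *Krt18*.
Krt5: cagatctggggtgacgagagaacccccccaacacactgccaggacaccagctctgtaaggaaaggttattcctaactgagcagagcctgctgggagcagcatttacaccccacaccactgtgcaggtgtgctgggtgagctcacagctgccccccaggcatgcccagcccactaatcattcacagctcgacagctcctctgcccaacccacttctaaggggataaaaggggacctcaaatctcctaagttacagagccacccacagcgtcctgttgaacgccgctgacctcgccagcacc
Krt14: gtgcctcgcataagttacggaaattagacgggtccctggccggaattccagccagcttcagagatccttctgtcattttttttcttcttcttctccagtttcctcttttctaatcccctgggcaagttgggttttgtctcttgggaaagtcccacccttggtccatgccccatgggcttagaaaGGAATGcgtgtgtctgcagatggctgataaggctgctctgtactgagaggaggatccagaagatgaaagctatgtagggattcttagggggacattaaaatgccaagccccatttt
Krt8: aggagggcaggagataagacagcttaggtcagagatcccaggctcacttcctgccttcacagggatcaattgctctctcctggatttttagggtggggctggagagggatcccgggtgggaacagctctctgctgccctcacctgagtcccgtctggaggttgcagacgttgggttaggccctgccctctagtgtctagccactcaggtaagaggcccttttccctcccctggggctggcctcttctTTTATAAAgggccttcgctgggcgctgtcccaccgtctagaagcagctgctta
Krt18: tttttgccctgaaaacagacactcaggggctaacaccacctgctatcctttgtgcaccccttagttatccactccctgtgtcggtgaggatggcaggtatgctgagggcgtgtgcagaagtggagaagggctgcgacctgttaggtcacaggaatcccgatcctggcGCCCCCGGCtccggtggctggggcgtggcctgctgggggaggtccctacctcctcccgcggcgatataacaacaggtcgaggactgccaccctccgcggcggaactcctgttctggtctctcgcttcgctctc

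Promoters of *Krt5*, *Krt14*, *Krt7*, *Krt8* and *Krt18* were in the table of 32851 promoters, and those of *Krt15*, *Krt17* and *Krt19* were not. Of the 5, *Krt8* alone held TATAAA, once on each strand in overlapping letters, against 13.6% of all promoters. These matches lie at bases 248 to 255 of the window, across the start itself. The search took exact letters only, so near matches in the other promoters were not counted. *Krt14* alone held GGAATG, which 14.7% of all promoters hold. GCCNNNGGC was found in *Krt18* and *Krt7*, against 16.6% of all promoters. *Krt7* (chr15:101412153-101412452, plus strand) was the only one with GGGCGG, with 4 matches, a motif of 35.7% of all promoters, and the first of its matches overlaps a match to GCCNNNGGC. None of the 5 held TGANTCA, which is in 7.81% of all promoters. *Krt5* thus shared no searched motif with *Krt14*, nor *Krt8* with *Krt18*, in these windows. The matches are letters in a window and were not tied to any measured binding.

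The libraries held 1918198 to 2652710 counts in genes at day 5 and 2154261 to 2837397 at day 7. Levels are given as CPM, counts per 1000000 counts in genes, with library sizes scaled by edgeR's TMM method, and a count stands for 1 read from the 3′ end of a transcript, so levels of different genes can be set side by side without division by length. In bulk RNA, fewer cells of a type and less RNA per cell cannot be told apart. The share of reads outside genes moved with the day (13.7 to 14.4% at day 5, 9.12 to 9.74% at day 7), and its part in the results was not tested. The day 7 libraries also varied more among themselves: the share of counts in mitochondrially encoded protein genes was 2.26% in mouse 1 and 0.926 and 0.924% in mice 2 and 3, against 2.60 to 2.72% at day 5.

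Epithelial identity was seen in the level of *Epcam*, an adhesion protein of duct epithelium, at 484 ± 58.2 CPM on day 5 and 505 ± 62.6 on day 7 (SD, n = 3). Markers of other cell types were scarce. The summed level of 5 endothelial markers was at most 1.00 CPM and that of 6 fibroblast markers at most 1.96 CPM in any library, and 2 and 3 of these markers had no count at all. Of 6 macrophage markers 4 (*Adgre1*, *Csf1r*, *C1qa* and *C1qb*) had no count, and the summed level at day 5 (0.360 to 1.65 CPM) was below that at day 7 (3.45 to 6.85 CPM), mostly from *Cd68*. Summed over 5 myoepithelial markers, the day 5 libraries had 1.51 to 2.16 CPM and the day 7 libraries 7.34 to 11.8 CPM. *Acta2*, the smooth muscle actin of myoepithelial cells, had 0 counts in each day 5 library and 14, 24 and 2 counts in mice 1, 2 and 3 at day 7. Their part in the changes of *Krt14*, *Krt5* and *Krt17* was not tested.

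All 8 keratins were well above the limit of detection, from 94 counts (*Krt19*, day 5, mouse 2) to 21608 counts (*Krt14*, day 5, mouse 3), and all passed the filter on low counts. Between day 5 and day 7, type I keratins *Krt19* and *Krt15* rose and type II keratin *Krt8* fell, while *Krt5*, *Krt14*, *Krt17*, *Krt7* and *Krt18* did not pass the threshold of an adjusted p under 0.05 and a log2 fold change over 0.6 in size. These 3 of 8 compare with 12.0% of the 15792 genes tested (7.22% higher and 4.82% lower at day 7). For 3 of the 8, the same ones, the day 5 and day 7 values did not overlap, and this was so for 30.9% of all genes tested, so the latter count is near the background. An unadjusted edgeR p under 0.05 was found for 5 of the 8 and for 25.8% of all genes tested. The median log2 fold change over the 8 keratins was -0.04, and over all genes tested it was -0.01.

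**Figure D1:**
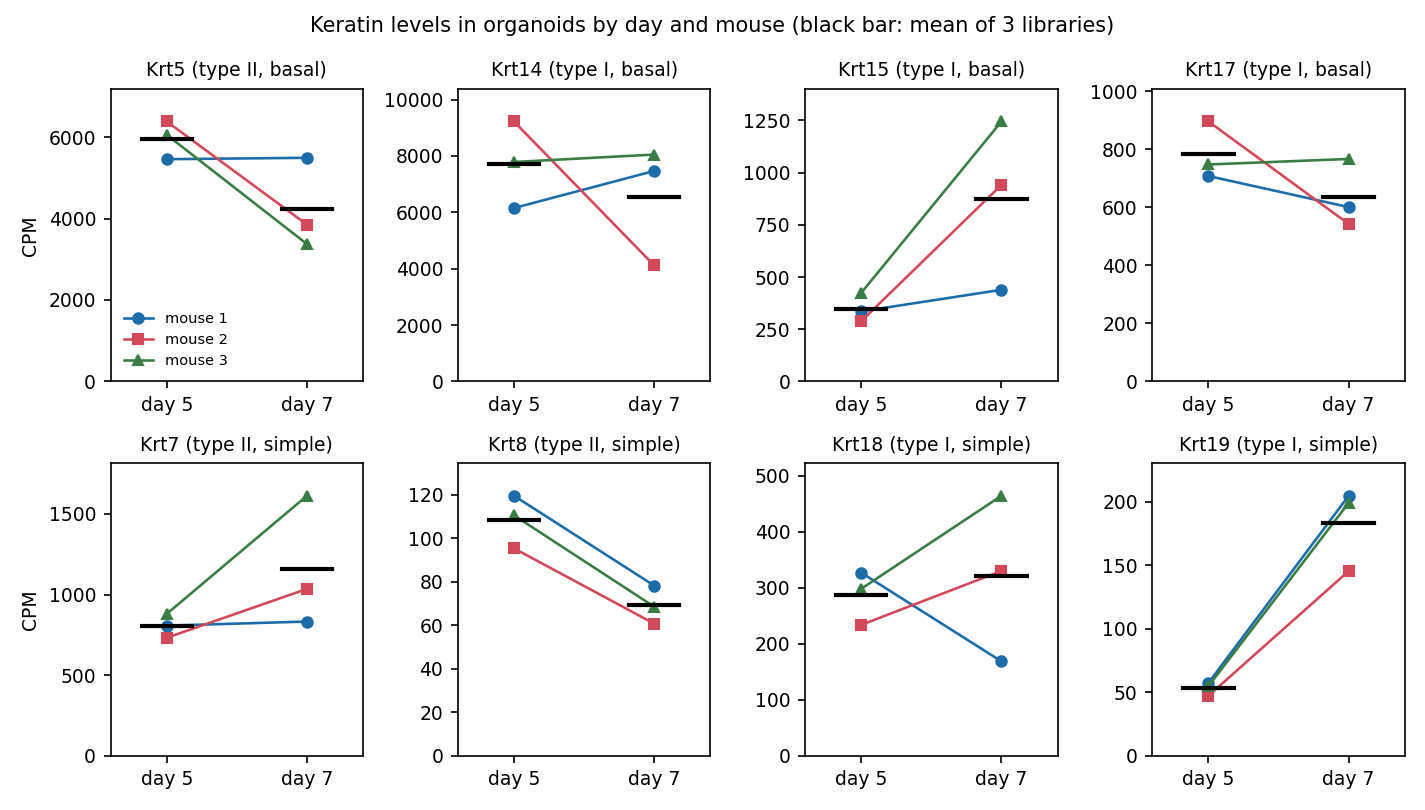
Level of each keratin in CPM (vertical axis from 0, a separate scale for each gene) at day 5 and day 7, with lines joining the libraries of each mouse and black bars at the mean of 3 libraries. *Krt19* and *Krt8* moved the same way in all 3 mice by similar amounts, *Krt15* rose from 335 to 439 CPM in mouse 1 and more steeply in mice 2 and 3, and *Krt14* and *Krt18* moved in different directions in different mice.

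*Krt19*, the smallest type I keratin, which is made in many duct cells, showed the largest change of the 8. Its level in mice 1, 2 and 3 was 57.3, 47.2 and 54.8 CPM at day 5 and 205, 145 and 199 CPM at day 7. Every day 7 library was above every day 5 library. The means were 53.1 ± 5.27 and 183 ± 32.8 CPM (SD, n = 3), a fitted 3.44-fold rise. In the edgeR fit this was 1.78 ± 0.21 (SE) on the log2 scale, adjusted p = 1.56e-05. The log2 change within mice was 1.84, 1.62 and 1.86, a narrower spread than that of *Krt15*, and *Krt19* passed the threshold under each of 16 alternative settings (log2 fold change 1.68 to 1.93).

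*Krt15*, a type I keratin known from basal and progenitor cells of stratified epithelia, rose as well but unevenly. Its level in mice 1, 2 and 3 was 335, 288 and 424 CPM at day 5 and 439, 942 and 1245 CPM at day 7. The lowest day 7 library, of mouse 1, lay just above the highest day 5 library. The means were 349 ± 69.0 and 875 ± 407 CPM (SD, n = 3), a fitted 2.50-fold rise. In the edgeR fit this was 1.32 ± 0.28 (SE) on the log2 scale, adjusted p = 0.00440, range over the alternatives 8.83e-09 to 0.0672. Within mice the log2 change was 0.39, 1.71 and 1.55. Without day 5 replicate 2 the rise of *Krt15* was 1.20 with an edgeR adjusted p of 0.0672, and in a test against the 0.6 cutoff itself (glmTreat) the adjusted p was 0.0527. Its neighbour *Krt19* on chromosome 11 also rose, while *Krt14* and *Krt17* of the same cluster did not pass. The rises of *Krt15* and *Krt19* differed in mouse 1 (log2 change 0.39 against 1.84). Other keratin genes of chromosome 11, *Krt10*, *Krt13*, *Krt20* and *Krt23*, rose as well, as given below.

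*Krt8*, the type II keratin of simple epithelia and a luminal duct marker in the study, fell. Its level in mice 1, 2 and 3 was 120, 95.4 and 111 CPM at day 5 and 78.2, 60.8 and 68.5 CPM at day 7. Each day 7 library was below each day 5 library. The mean went from 109 ± 12.2 to 69.2 ± 8.76 CPM (SD, n = 3). The edgeR fit gave -0.65 ± 0.20 (SE) on the log2 scale, adjusted p = 0.0374, range over the alternatives 0.0132 to 0.631. The log2 change within mice was -0.61, -0.65 and -0.69. *Krt8* sat close to the cutoff: the call was lost under glmTreat (adjusted p = 0.631), without day 5 replicate 1, 2 or 3 (log2 fold change -0.58, -0.73 and -0.64, edgeR adjusted p = 0.180, 0.0920 and 0.159) and without day 7 replicate 2 (-0.56, edgeR adjusted p = 0.137).

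*Krt18*, the type I partner of *Krt8*, did not pass the threshold. Its level in mice 1, 2 and 3 was 327, 233 and 298 CPM at day 5 and 168, 330 and 464 CPM at day 7. The day 7 libraries held both the lowest and the highest value of the 6. The means were 286 ± 47.7 and 321 ± 148 CPM (SD, n = 3). The edgeR fit gave 0.16 ± 0.27 (SE) on the log2 scale, adjusted p = 0.766, with within-mouse changes of -0.96, 0.50 and 0.64. Without day 7 replicate 3 the direction turned, to -0.20.

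*Krt7*, the other type II keratin of ducts, had 807, 732 and 880 CPM at day 5 and 832, 1035 and 1613 CPM at day 7 in mice 1, 2 and 3. The day 7 library of mouse 1 lay within the day 5 range and those of mice 2 and 3 lay above it. The means were 806 ± 74.1 and 1160 ± 405 CPM (SD, n = 3). The edgeR fit gave 0.52 ± 0.22 (SE) on the log2 scale and missed the threshold (adjusted p = 0.140), with an unadjusted p of 0.0307. Without day 7 replicate 1 *Krt7* passed (0.72, edgeR adjusted p = 0.0143).

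*Krt5*, the type II keratin of basal cells, had 5457, 6383 and 6055 CPM at day 5 and 5492, 3850 and 3373 CPM at day 7 in mice 1, 2 and 3. The day 7 libraries of mice 2 and 3 were below all day 5 libraries, and that of mouse 1 was within their range. The means were 5965 ± 470 and 4238 ± 1112 CPM (SD, n = 3). The edgeR fit gave -0.49 ± 0.21 (SE) on the log2 scale and missed the threshold (adjusted p = 0.140), with an unadjusted p of 0.0304. Without day 7 replicate 1 *Krt5* passed (-0.72, edgeR adjusted p = 0.00704). Of the 3 day 7 libraries, that of mouse 1 was the nearest to the day 5 values for *Krt5*, *Krt7*, *Krt15* and *Krt8*, but the farthest from them for *Krt19* (205 CPM), and for *Krt18* it was the only one below the day 5 range (168 CPM). This library also had the mitochondrial share nearest to day 5 (2.26%), whose part in these values was not tested.

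*Krt14*, the type I partner of *Krt5*, had 6151, 9222 and 7785 CPM at day 5 and 7468, 4114 and 8049 CPM at day 7 in mice 1, 2 and 3. The low day 7 value came from mouse 2 alone, and those of mice 1 and 3 lay within the day 5 range. The means were 7719 ± 1536 and 6543 ± 2124 CPM (SD, n = 3). The edgeR fit gave -0.24 ± 0.24 (SE) on the log2 scale, adjusted p = 0.580, and without day 7 replicate 2 it was 0.01. *Krt17*, a type I keratin induced in injured and activated epithelia, had 708, 896 and 748 CPM at day 5 and 601, 543 and 767 CPM at day 7 in mice 1, 2 and 3. The ranges of the days overlapped through mouse 3, and the edgeR fit gave -0.30 ± 0.19 (SE) on the log2 scale, adjusted p = 0.353.

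**Figure D2:**
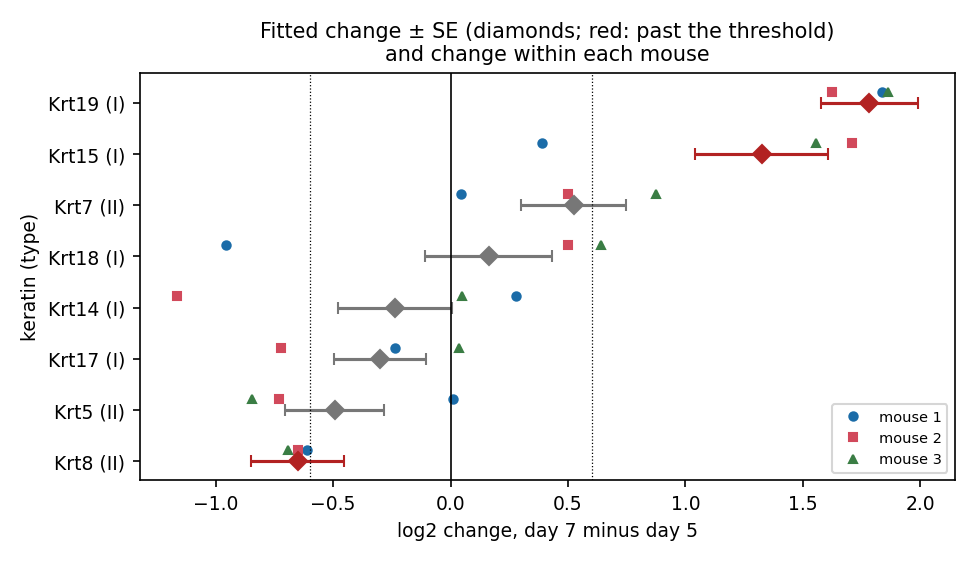
Log2 change of each keratin from day 5 to day 7 (horizontal axis), as fitted by edgeR (diamonds with SE, red where past the threshold) and within each mouse (small symbols), with dotted lines at 0.6 on either side of 0. *Krt19* (1.78), *Krt15* (1.32) and *Krt8* (-0.65) are red, and the mice are closest to each other for *Krt8* and *Krt19*.

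Spread between mice was larger at day 7. The coefficient of variation over the 3 libraries was larger at day 7 than at day 5 for each of the 8 keratins, from 7.87 to 26.2% for *Krt5*, from 9.20 to 34.9% for *Krt7*, from 16.7 to 46.2% for *Krt18* and from 19.8 to 46.5% for *Krt15*. It was least at day 7 for *Krt8* (12.7%), *Krt19* (17.9%) and *Krt17* (18.3%). A difference of this kind was also present over genes at large, taken as those above a low summed count in each library pair. Their chi-square per degree of freedom lay between 1.99 and 3.24 for day 5 pairs and between 12.3 and 19.9 for day 7 pairs. This measure grows with counts, so abundant genes weigh most in it.

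In the order of levels, *Krt14* and *Krt5* stood far above the rest on both days. *Krt14* ranked 4th to 8th and *Krt5* 7th to 12th of the genes tested in each library, while *Krt8* ranked between 1440th and 2912th and *Krt19* between 724th and 3459th. At day 5 the order was *Krt14*, *Krt5*, *Krt7*, *Krt17*, *Krt15*, *Krt18*, *Krt8* and *Krt19*. Neighbours whose ranges overlapped were *Krt14* with *Krt5*, *Krt7* with *Krt17* and *Krt15* with *Krt18*, although *Krt14* was above *Krt5* within each of the 3 libraries. At day 7 the order was *Krt14*, *Krt5*, *Krt7*, *Krt15*, *Krt17*, *Krt18*, *Krt19* and *Krt8*. There the ranges overlapped for *Krt14* with *Krt5*, *Krt7* with *Krt15*, *Krt15* with *Krt17* and *Krt18* with *Krt19*. *Krt19* and *Krt8* exchanged the last places without overlap on either day.

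The comparison of type I with type II partners was made as the log2 ratio of their counts within each library, which needs no scaling between libraries. Of 9 ratios computed, 4 did not overlap between the days: *Krt8*/*Krt19*, *Krt5*/*Krt15*, *Krt7*/*Krt19* and *Krt7*/*Krt18*. Among single genes tested, 30.9% did not overlap, and the share over other ratios was not computed. All of these ratios but *Krt7*/*Krt18* hold *Krt19* or *Krt15*, whose own levels did not overlap, so they are not independent of the results for single genes. With 3 libraries against 3 the exact two-sided permutation test cannot go below 0.1, which all 4 reached (0.225 after Benjamini-Hochberg adjustment over the 9), and the exact sign-flip test within 3 mice cannot go below 0.25, which all 4 reached too. Neither of these exact tests could therefore reach 0.05.

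The largest shift of a ratio was between *Krt8* and *Krt19*. *Krt8* had 2.09, 2.02 and 2.02 counts per count of *Krt19* in mice 1, 2 and 3 at day 5, and 0.382, 0.418 and 0.344 at day 7. The type II partner was thus the more abundant in every day 5 library and the less abundant in every day 7 library. The log2 ratio fell by 2.43, or 5.37-fold, with within-mouse changes of -2.45, -2.27 and -2.55. Against *Krt18*, its classic partner, *Krt8* was the lower in all 6 libraries. *Krt18* had 2.73, 2.45 and 2.69 counts per count of *Krt8* in mice 1, 2 and 3 at day 5, and 2.15, 5.43 and 6.77 at day 7. The day 5 values lay close together and the day 7 values on both sides of them (log2 difference of *Krt8*/*Krt18* -0.71, exact permutation p = 0.4).

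*Krt7* exceeded both simple type I keratins in every library. Its ratio to *Krt18* was 2.47, 3.13 and 2.95 in mice 1, 2 and 3 at day 5 and 4.94, 3.14 and 3.48 at day 7, a log2 difference of 0.41. The days did not overlap, but only by the margin between 3.13 and 3.14, both in mouse 2. Its ratio to *Krt19* was 14.1, 15.5 and 16.1 at day 5 and 4.06, 7.11 and 8.10 at day 7, a log2 difference of -1.30, lower in 3 of 3 mice. The rise of *Krt19* thus left it well below *Krt7* but changed its proportion to both type II keratins of simple epithelium in the same direction.

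Among the basal keratins, the pair *Krt5* and *Krt14* kept the nearest to equal counts. *Krt5* had 0.887, 0.692 and 0.778 counts per count of *Krt14* in mice 1, 2 and 3 at day 5 and 0.735, 0.936 and 0.419 at day 7. The days overlapped, and the lowest ratio came from mouse 3 at day 7, where *Krt5* but not *Krt14* was low (log2 difference -0.24, exact permutation p = 0.7, turning to 0.09 without day 7 replicate 3). The ratio of *Krt5* to *Krt17* went from a mean log2 of 2.93 ± 0.09 to 2.72 ± 0.54 (SD, n = 3, exact permutation p = 0.7). *Krt5* had 16.3, 22.1 and 14.3 counts per count of *Krt15* at day 5 and 12.5, 4.09 and 2.71 at day 7, a log2 difference of -1.74, with mouse 1 at day 7 just below the day 5 range and mice 2 and 3 far below it.

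Summed over the 8 genes, type II counts (*Krt5*, *Krt7* and *Krt8*) were below type I counts in all 6 libraries, with log2 ratios of -0.25, -0.57 and -0.40 at day 5 and -0.47, -0.30 and -1.09 at day 7 in mice 1, 2 and 3. The difference of -0.21 was within the spread (exact permutation p = 0.6). Over all 25 type II and 28 type I keratin genes, a count added after the data were seen, the log2 ratios were 0.18, 0.02 and 0.04 at day 5 and 0.44, 0.46 and -0.29 at day 7, so the difference was 0.13. The counts of the simple keratins stood against those of the basal keratins at log2 ratios of -3.27, -3.92 and -3.48 at day 5 and -3.45, -2.59 and -2.52 at day 7. The simple share was higher at day 7 in mice 2 and 3 and lower in mouse 1 (difference 0.71, exact permutation p = 0.2). With *Krt17* counted among the simple keratins, also added after the data were seen, the difference was 0.46 (exact permutation p = 0.3), with the same split of the mice.

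**Figure D3:**
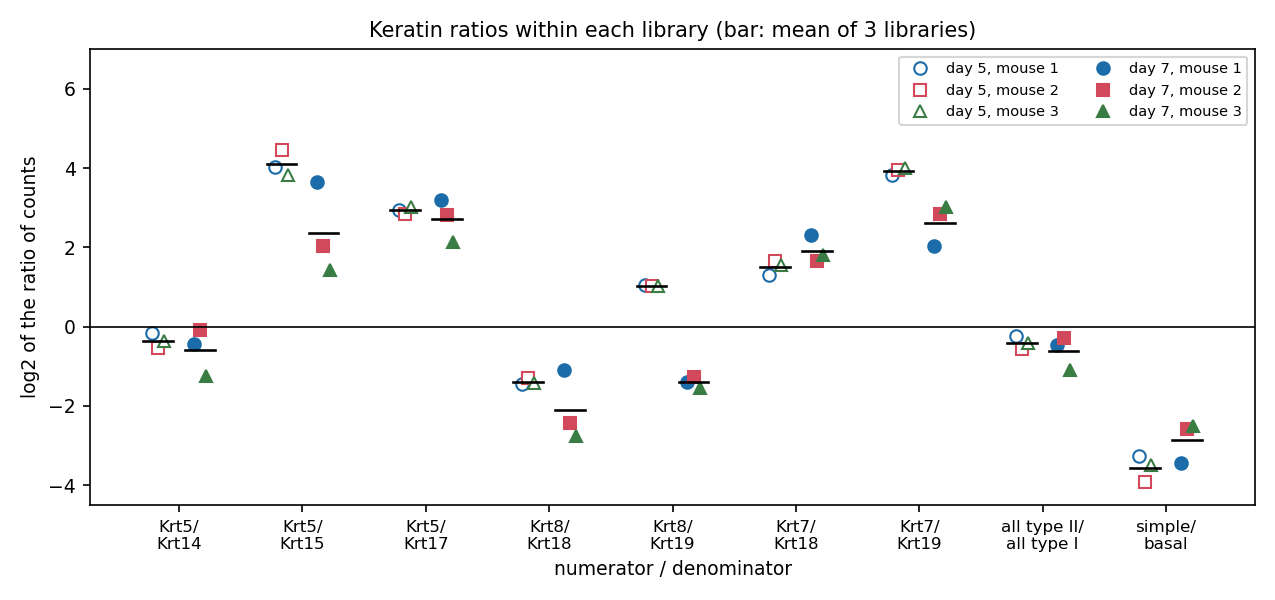
Log2 of the ratio of counts (vertical axis) for 9 ratios of type II to type I keratins or of simple to basal keratins (horizontal axis), with open symbols at day 5, filled symbols at day 7, and bars at the mean of 3 libraries. The ratio *Krt8*/*Krt19* crosses 0 in all 3 mice, from 1.06, 1.02 and 1.01 to -1.39, -1.26 and -1.54, while *Krt5*/*Krt14* stays below 0 with overlapping days.

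Together the 8 keratins took 1.42, 1.86 and 1.71% of counts at day 5 and 1.44, 1.12 and 1.50% at day 7 in mice 1, 2 and 3. The days overlapped, with means of 1.66 ± 0.226 and 1.35 ± 0.204% (SD, n = 3), and an exact permutation test gave p = 0.3. Within this total the share of *Krt14* was 47.7 ± 3.74% at day 5 and 45.7 ± 7.36% at day 7, and that of *Krt5* was 37.3 ± 1.72 and 30.8 ± 8.13%. The share of *Krt15* moved from 2.20 ± 0.521 to 6.44 ± 3.10% and that of *Krt19* from 0.336 ± 0.0735 to 1.31 ± 0.0402%, both higher in 3 of 3 mice (exact permutation p = 0.1, the smallest possible).

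With the 45 other keratin genes included, keratins held 2.06 ± 0.328% (day 5) and 2.07 ± 0.268% (day 7) of all counts (SD, n = 3), and an exact permutation test gave p = 1. The 8 basal and simple keratins made up 82.2, 78.2 and 82.5% of these keratin counts at day 5 and 60.7, 60.2 and 75.1% at day 7 in mice 1, 2 and 3. Each day 7 value was below each day 5 value (exact permutation p = 0.1, the smallest possible). Of the 45 other keratin genes, 23 passed the filter and 14 had no count, and 7 of the 23 rose and 1 fell, against 7.22 and 4.82% of all genes tested. The type I genes among them gave 4 rises of 12 tested, and the type II genes 3 rises and 1 fall of 11. *Krt6b*, a type II keratin of activated and suprabasal epithelium, had 347 ± 156 CPM at day 5 and rose to 1655 ± 1208 CPM (2.25 on the log2 scale, edgeR adjusted p = 0.00128). Suprabasal type I keratins *Krt10* (103 to 434 CPM, 2.08) and *Krt13* (155 to 649 CPM, 2.07) rose by like amounts, and *Krt4*, the type II partner of *Krt13*, rose from 5.33 to 74.9 CPM (3.80). *Krt20* (4.25 to 37.6 CPM, 3.12) and *Krt23* (2.02 to 51.3 CPM, 4.61) also rose, and *Krt79*, a type II keratin known from sebaceous ducts of the skin, fell from 11.3 to 2.54 CPM (-2.20). *Krt6a*, named after its values were seen as the most abundant of the others, had 2935 ± 715 CPM at day 5 and 4303 ± 726 CPM at day 7 and did not pass (0.55, edgeR adjusted p = 0.102).

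Genes that tie keratin filaments to cell junctions or process them were looked at as the partners of these proteins. Of 12 listed, 11 were matched and tested, and 3 rose and none fell, against 7.22% of all genes tested that rose. The median log2 fold change was 0.41, and -0.01 over all genes. The plakins *Ppl* (94.4 ± 13.7 to 215 ± 49.2 CPM, 1.19 on the log2 scale, edgeR adjusted p = 0.000976) and *Evpl* (27.3 ± 6.71 to 54.9 ± 8.16 CPM, 1.01, 0.00842) bind keratins at the cornified envelope and desmosome. *Pkp3*, a desmosomal plaque protein, rose from 143 ± 11.4 to 284 ± 106 CPM (0.98, edgeR adjusted p = 0.00810). *Dsp*, which anchors keratins at desmosomes (0.47, edgeR adjusted p = 0.116), and *Plec*, which anchors them at hemidesmosomes (-0.15, 0.709), did not pass, and both are given after their values were seen. Without day 5 replicate 1 or day 5 replicate 3, 1 linker passed.

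Of 14 transcription factors known to act on keratin genes, all were tested, and 4 rose and none fell, again against 7.22% of all genes that rose, with a median log2 fold change of 0.27 (-0.01 over all genes). *Sox2*, a factor of progenitor cells, rose from 1.19 ± 1.24 to 15.4 ± 3.43 CPM (3.58, edgeR adjusted p = 0.000158), with 9 counts in total at day 5. The epithelial ETS factors *Ehf* (157 ± 10.8 to 449 ± 145 CPM, 1.51, edgeR adjusted p = 0.000219) and *Elf3* (18.5 ± 3.95 to 67.5 ± 27.3 CPM, 1.86, 0.000410) rose, and *Ovol1* was the other gene past the threshold (1.47, edgeR adjusted p = 0.0114). *Ovol1* and *Trp63* are named after their values were seen. *Trp63*, the master factor of basal cells and an activator of *Krt5* and *Krt14*, had 95.1 ± 12.2 CPM at day 5 and 129 ± 52.3 CPM at day 7 and did not pass (0.45, edgeR adjusted p = 0.271).

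Markers of the same cells that are no keratins were set beside them. Of 7 basal duct markers, 1 rose and none fell (median log2 fold change 0.28), which with 7.22% of all genes rising is near the background. It was *Ngfr*, a receptor of basal progenitors (27.0 ± 8.63 to 73.3 ± 25.6 CPM, 1.42, edgeR adjusted p = 0.00242). Summed, they had 2998 to 3069 CPM (day 5) and 3026 to 3838 CPM (day 7), with overlapping days. Of 9 luminal duct markers, 8 were tested, and 6 rose and none fell (median 1.45, against -0.01 over all genes and the same 7.22% that rose). The tight junction gene *Cldn4* (1.89, edgeR adjusted p = 0.000149) had the smallest p, before *Ehf* and *Elf3*, which are in both lists. Summed, they had 772 to 926 CPM (day 5) and 1295 to 1762 CPM (day 7), without overlap. The luminal duct keratins gave 1 rise (*Krt19*) and 1 fall (*Krt8*) of 4, so the keratins of luminal cells did not all go the way of the other luminal genes, and the difference between these lists was not tested.

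The genes with the most similar profile over the 6 libraries were found by the root mean square difference of log2 CPM, each gene centred on its own mean, among 8171 other genes whose mean was 10 CPM or more. They were *Abhd6* (0.05) and *Lage3* (0.05) for *Krt5*, *Tufm* (0.07) and *Naa60* (0.11) for *Krt14*, *Ctns* (0.12) and *Sort1* (0.13) for *Krt15*, and *Rapgefl1* (0.05) and *Ptgr1* (0.06) for *Krt17*. For the simple keratins they were *Snx17* (0.02) and *Oxct1* (0.05) for *Krt7*, *Med6* (0.03) and *Pitrm1* (0.06) for *Krt8*, *Zscan21* (0.08) and *Ttc4* (0.11) for *Krt18*, and *Ddit3* (0.19) and *Ndrg2* (0.19) for *Krt19*. Each profile rests on 6 points. No keratin of the 8 was among the nearest of another, and the classic pairs were far down each other's order. *Krt14* was 2764th from *Krt5* and *Krt5* 1672nd from *Krt14* (0.38), while *Krt18* was 6210th from *Krt8* and *Krt8* 5207th from *Krt18* (0.62). *Krt7*, the other type II keratin compared with *Krt18*, was 342nd from it, and *Krt18* was 1576th from *Krt7* (0.30). The closest by rank was *Krt17*, 148th from *Krt14*, while *Krt14* was 1105th from *Krt17* (0.23). *Krt5* and *Krt8* were about as close (0.23), with *Krt8* 615th from *Krt5* and *Krt5* 603rd from *Krt8*. The last 500 bases of the transcripts of *Krt14* and *Krt17* share 43 of 451 words of 50 bases with each other or with *Krt16* (9.53%). A part of their reads could therefore be placed on the wrong gene or left uncounted, which was not tested. *Krt7* shares 20 such words and *Krt18* 5 with other genes, and *Krt5*, *Krt15*, *Krt8* and *Krt19* share none. *Krt5*, *Krt7*, *Krt8* and *Krt19* also overlap annotated genes on the opposite strand, and without a stated strand setting reads of these cannot be told apart.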

How the data were processed

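Polyadenylated RNA of 6 mSGO libraries (3 mice, day 5 and day 7) had been converted with the Lexogen QuantSeq 3′ kit, from 100 ng of RNA, and aligned to GRCm39. The deposited files hold the authors' whole-number read counts per Ensembl gene ID, not normalised, and per the labels edgeR was used downstream. Aligner, counter, annotation release, strand setting and treatment of multiply aligned reads are not given in the sources used here. The 5 closing entries that name no gene (9.12 to 14.4% of reads) were left out. Among them, the entry for reads without a unique alignment was 0 in all 6 libraries, which does not tell how such reads were treated. Names and coordinates came from GENCODE vM39 by exact ID (91.2% matched).

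The 15792 genes that had 1 count or more in 2 libraries or more were fitted with edgeR 4.0.16 in R 4.3.3 (TMM, quasi-likelihood F-test, two-sided, day 7 against day 5, Benjamini-Hochberg adjustment over all genes tested). Past the threshold meant an adjusted p under 0.05 and a log2 fold change over 0.6 in size. On simulated counts of 15792 genes, 100% of genes changed by a log2 fold of 2 and 55% of those changed by 1 were recovered. False calls were 1.9%. The simulation gave all genes the same fixed dispersion on both days and placed changes only in genes with higher counts. Its figures therefore do not cover genes of low count or the larger spread between the day 7 libraries. Per-library log2 CPM used a prior count of 2. Ratios and shares were tested over libraries by exact permutation. Depth sets the precision: 3 counts, the limit that a count of 0 allows, were 1.06 to 1.56 CPM, which covers counting error only.

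The replicates are separate mice. The labels number the mice 1 to 3 on each day, and equal numbers were read as the same animal, which no source states outright. The deviations of same-numbered libraries correlated by 0.14, -0.10 and 0.16 over 8172 genes. The main fit had no block, since the study's methods name none, and the mouse block was an alternative. Other alternatives were scaling, filtering, DESeq2 1.42.0, limma 3.58.1 (voom), robust fitting, glmTreat and leaving out each library.

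Named were all 8 keratins, other keratins past the threshold whose mean was 5 CPM or more, the 2 genes nearest to each keratin in profile, and up to 3 genes past the threshold with the smallest p per list. Other genes named were chosen after their values were seen. The 8 keratins and the lists were chosen with earlier results of these data known. Promoters came from RefSeq (GRCm38.p6).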

Additional observations from a re-analysis of the deposited data

How the results depend on the processing

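Each result was recomputed under other scalings, filters, tools, a mouse block and without each library. *Krt19* kept its rise past the threshold throughout. Of the 8 keratins 3 passed in most settings, but 1 (*Krt19*) by glmTreat and 1 to 5 without 1 library (1 without day 5 replicate 2, 5 without day 7 replicate 1). With the mouse as a block the same number, 3, passed and no keratin changed its call (*Krt19* log2 fold change 1.78, *Krt15* 1.22, *Krt8* -0.65). All genes past the threshold numbered 1901, 622 by glmTreat, 2340 with the block and 797 to 2576 without 1 library. With library totals as the only scaling, 950 genes were higher and 1008 lower, against 1140 and 761 with TMM, and the median log2 fold change of all genes was -0.10, while the same number of keratins passed. Of the linkers 1 passed by glmTreat and 1 to 4 without 1 library. The other keratins gave 6 with robust fitting and 7 to 11 without 1 library, and the regulators 3 to 5 without 1 library.

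Without 1 library the log2 ratios ranged from -0.49 to 0.086 for *Krt5*/*Krt14*, from -0.45 to 0.077 for *Krt5*/*Krt17* and from -0.37 to 0.022 for all type II/type I keratins, each turning without day 7 replicate 3. The last also turned with all keratin genes counted (0.13), a setting chosen after seeing the data. *Krt5*/*Krt15* ranged from -2.37 to -1.27, *Krt8*/*Krt18* from -1.21 to -0.38, *Krt8*/*Krt19* from -2.49 to -2.35, *Krt7*/*Krt18* from 0.22 to 0.55, *Krt7*/*Krt19* from -1.50 to -1.001, simple/basal from 0.53 to 1.01, and the share of the 8 keratins from -0.433 to -0.194 percentage points. *Krt14* ranged from -0.42 to 0.0079, turning without day 7 replicate 2, and *Krt18* from -0.20 to 0.47, turning without day 7 replicate 3. Causes other than the fewer samples were not tested. At 3 mice per day, whether *Krt5*, *Krt7*, *Krt8* and *Krt15* passed changed with single libraries while their direction did not. The depth of 1918198 to 2837397 counts leaves *Krt19* at 94 to 534 counts.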
